A study of Sus scrofa with 5 samples.

Results

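The genes described here encode the Golgi enzymes that build the sugar chains of glycoproteins and glycolipids, together with the genes most directly tied to carbohydrate xenoantigens. They were chosen by symbol from the pig count table: every symbol starting with B3G, B4G, ST3GAL, ST6GAL, ST8SIA, GALNT or MGAT, or with FUT followed by a digit, and in addition CMAH and A4GALT. The rule found 83 of the 15235 symbols in the table, and 74 of them had enough counts to be tested, out of 12620 genes tested in all. The 9 members below the filter on low counts were B3GAT2, B3GNT6, GALNT13, GALNT9, MGAT4D, MGAT5B, ST6GALNAC1, ST8SIA3 and ST8SIA6. Of the 74 that passed, 4 (ST6GAL2, B3GAT1, B3GNT4 and FUT7) passed through the xenograft libraries alone, so that a higher level in the xenograft was built into their being tested. B4GALNT2, which makes the Sda xenoantigen, fits the rule, but the pig table holds no such symbol, so the pig gene was not analysed. The pig gene GGTA1, which makes the alpha-Gal xenoantigen, was not analysed here either.

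The samples were core biopsies of pig kidney from the second case of a study of pig-to-human kidney xenotransplantation, read by RNA sequencing of total RNA depleted of ribosomal RNA. The xenograft was sampled once each at 12, 24 and 48 h after transplantation. The 2 control libraries, labelled 0 h, came from untransplanted kidney. All biopsies were taken from 1 graft. The labels do not say whether the controls came from 1 kidney or from separate animals. They give no genotype, breed, sex or age for either group. From what has been published on such cases, and not from the labels, the donors of these grafts carry a disrupted GGTA1 gene. The graft is joined to donor thymus, by the same published accounts. Whether the controls shared the donor genotype is not given in the sources used here. The labels call the material dissociated kidney cells, whereas the extraction protocol starts from homogenised cores. A p-value here measures the spread among these 5 libraries only.

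Sugar chains are assembled stepwise, each enzyme adding a single sugar in a fixed linkage to a particular acceptor, so the set of transferases in a cell shapes which chains it can display. N-glycans are trimmed and then branched by the MGAT enzymes, mucin-type O-glycans are started by the GALNT enzymes, and both are extended by galactosyl- and N-acetylglucosaminyltransferases and capped by sialyl- and fucosyltransferases. Preformed human antibodies recognise several pig glycans, among them alpha-Gal, the N-glycolylneuraminic acid made by CMAH, and the Sda antigen. In the kidney the apical brush border of the proximal tubule and the coat of the podocyte are heavily glycosylated.

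The pig table held between 56129926 and 66169176 counts in the biopsies and 65919506 and 71108823 in the controls. The 13 mitochondrial genes took 11.8% to 14.5% of counts in the biopsies and 21.9% and 33.4% in the controls. Scaling factors by the trimmed mean of M values (TMM) were 1.10 to 1.20 in the biopsies, against 0.906 and 0.733 in the controls, and levels are given below as TMM-scaled CPM, read counts scaled to a common library size. CPM is not divided by gene length, so levels are compared between samples and not between genes. The 2 control libraries differed by far more than counting noise, with a chi-square of 218 per degree of freedom over 12327 genes. Markers of the proximal tubule summed to 10100, 12500 and 9170 CPM in the biopsies at 12, 24 and 48 h and to 29100 and 30300 CPM in the controls, and 13 of 13 tested were lower. Tubular injury markers summed to 11300, 6640 and 7540 CPM in the biopsies and to 756 and 713 CPM in the controls, with 9 of 11 higher. Fibroblast and pericyte markers summed to 2250, 4130 and 7050 CPM in the biopsies and 1370 and 983 CPM in the controls (6 of 7 higher), and myeloid markers to 335, 426 and 486 CPM in the biopsies and 110 and 132 CPM in the controls (5 of 8 higher, 1 lower). Endothelial markers summed to 814, 933 and 869 CPM in the biopsies against 485 and 391 CPM in the controls (4 of 8 higher), and podocyte markers to 118, 143 and 188 CPM in the biopsies against 364 and 290 CPM in the controls (5 of 6 lower, 1 higher). Collecting duct markers summed to 1060, 1310 and 1190 CPM in the biopsies and 1100 and 1030 CPM in the controls (4 of 9 higher). Thick ascending limb and distal tubule markers summed to 6700, 9150 and 4950 CPM in the biopsies and 5280 and 4790 CPM in the controls. Of 7 tested, 3 were higher and 1 was lower. Of 8 tested T and NK cell markers, 1 was higher and 6 were lower. Of the thymocyte markers, 2 of 5 were at 0 in a whole group. The summed level of that list was at most 0.804 CPM in the biopsies and 0.864 CPM in the controls. In bulk samples, fewer cells of a type and less RNA per cell cannot be told apart, and the part of these shifts in the results below was not tested.

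Glycosyltransferase genes moved in both directions in the xenograft, more of them up than down. In the comparison of the 3 biopsies with the 2 controls, 27 members were higher, 11 were lower and 36 were not called (edgeR quasi-likelihood test, Benjamini-Hochberg adjusted p under 0.05 over all genes tested). The highest of the rises were in the O-glycan initiating enzymes GALNT15 and GALNT6 and in B3GNT3, and the deepest falls were in GALNT11 and B3GALT2. The called members made up 51.4% of those tested, against 37.5% of all genes. Members higher made up 36.5%, against 18.5% of all genes, and members lower made up 14.9%, against 19.0% of all genes. The enzyme families below are small, and their counts were not tested against these shares. The median log2 fold change was 0.33 over the members and 0.03 over all genes, with members ranging from -1.96 to 4.50. The summed level of all members was slightly lower in the xenograft, although more members were called up than down. It was 2240, 2350 and 2210 CPM in the biopsies and 2460 and 2500 CPM in the controls. Every biopsy thus lay below both controls. The sum is weighted to genes with high counts. GALNT11 alone read 127, 163 and 142 CPM in the biopsies and 551 and 572 CPM in the controls. That gap is wider than the gap of the sum, so the lower sum does not describe the members in general. All 3 biopsies lay above both controls for 35 members and below both for 19, and over all genes tested these shares were 33.7% and 32.6%. The direction counts rest on the control pair: 9 members were higher and 4 lower without the first control library, and 2 were higher and 2 lower without the second, while over all genes 738 higher and 1056 lower calls were left without the first and 464 and 727 without the second. Without the 24 h biopsy, 22 members were higher and 7 lower. The calls made in all 5 of these fits were B3GNT3 and GALNT18, both higher, and GALNT11 and MGAT4A, both lower. For a call named below that was lost without a library, the adjusted p of that fit is given.

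**Figure D1:**
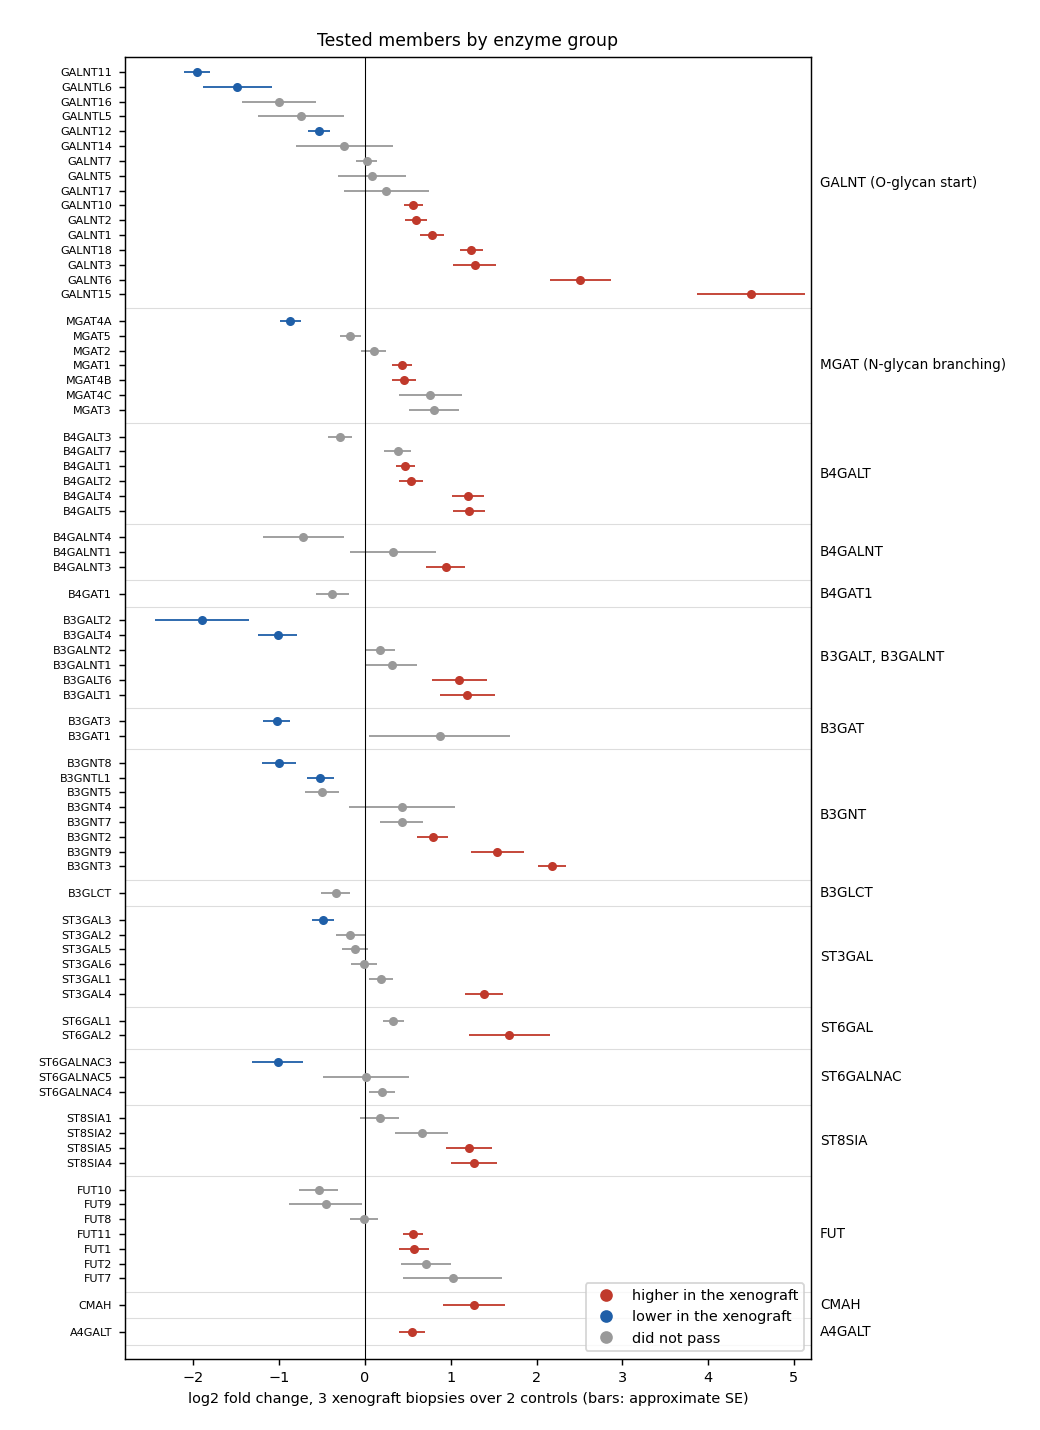
Log2 fold change of the 3 xenograft biopsies over the 2 controls (x axis) for the 74 tested members, grouped by enzyme family (y axis); points are edgeR estimates, bars the approximate standard error, and colour the call at an adjusted p of 0.05. Red points (27 higher) reach 4.50 at GALNT15, blue points (11 lower) reach -1.96 at GALNT11, and 36 grey points were not called.

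The polypeptide N-acetylgalactosaminyltransferases, which attach the first sugar of mucin-type O-glycans to serine and threonine, held both the largest rise and the largest fall. Of 16 tested members of the family, 7 were higher, 3 were lower and 6 were not called, with a median log2 fold change of 0.16. The shares over all genes were 18.5% higher and 19.0% lower. GALNT15 stood at 17.6, 9.57 and 4.99 CPM in the biopsies at 12, 24 and 48 h, against 0.536 and 0.403 CPM in the controls. The lowest biopsy was thus still several-fold above the higher control, and the level was lower at each later time. Its log2 fold change was 4.50 ± 0.63 (SE), or 22.7-fold, with an adjusted p of 0.00328, which was 0.0378 without the first control library and 0.0508 without the second. GALNT6 read 6.25, 3.56 and 4.01 CPM in the biopsies and 0.887 and 0.729 CPM in the controls, with no overlap, a log2 fold change of 2.51 ± 0.36 and an adjusted p of 0.00281 (0.0342 and 0.0502 without the first and the second control library). GALNT3, known in humans and mice for the O-glycan that protects the phosphate hormone FGF23 from cleavage, stood at 42.9, 34.2 and 24.0 CPM in the biopsies and 13 and 14.8 CPM in the controls. All biopsies were above the controls, and the gap was widest at 12 h. The log2 fold change was 1.28 ± 0.25 with an adjusted p of 0.00846, and 0.0857 and 0.075 without the first and the second control.

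GALNT18, a divergent member of the same family, was higher in every fit: 24.9, 23.8 and 26.2 CPM in the biopsies against 10.8 and 10.3 CPM in the controls. Both groups were tight, and the biopsies lay above the controls at all 3 times, a log2 fold change of 1.24 ± 0.13 with an adjusted p of 0.00101 that was at most 0.026 when any library was left out. The other 3 rises in the family were in the broadly expressed isoenzymes GALNT1, GALNT2 and GALNT10, with log2 fold changes of 0.78 ± 0.14, 0.59 ± 0.13 and 0.56 ± 0.11. Their adjusted p was 0.00529, 0.0116 and 0.00938. None of the 3 calls held with a control library left out, where the adjusted p lay between 0.0641 and 0.128.

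GALNT11, which in mouse kidney glycosylates the endocytic receptor megalin, went the other way. It stood at 127, 163 and 142 CPM in the biopsies and 551 and 572 CPM in the controls, so that even the highest biopsy was far below the lower control. The log2 fold change was -1.96 ± 0.15, a 3.90-fold lower level, with an adjusted p of 0.000512 that was at most 0.0165 when any library was left out. Its substrate gene LRP2, which encodes megalin and marks the proximal tubule, read 470, 1050 and 873 CPM in the biopsies and 3350 and 3120 CPM in the controls. Both genes were thus low in all 3 biopsies, and the proximal tubule markers as a list fell to about the same extent, with a median log2 fold change of -1.92. The part of that list in the GALNT11 result was not tested. GALNTL6 read 0.511, 1.18 and 0.775 CPM in the biopsies and 2.51 and 2.13 CPM in the controls, a log2 fold change of -1.49 ± 0.40 with an adjusted p of 0.0246 (0.151 and 0.121 without the first and the second control). GALNT12 read 14.0, 14.2 and 12.9 CPM in the biopsies against 19.2 and 20.7 CPM in the controls. That is a shallower difference, with a log2 fold change of -0.54 ± 0.13 and an adjusted p of 0.0175 (0.0878 and 0.153). GALNT7, which adds further sugars to chains already started, had a log2 fold change of 0.02 and an adjusted p of 0.894.

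The extension of mucin-type chains was led by B3GNT3, which adds N-acetylglucosamine to the core 1 O-glycan and takes part in making L-selectin ligands on mouse high endothelial venules. It stood at 39.6, 35.6 and 35.1 CPM in the biopsies and 9.11 and 7.14 CPM in the controls. The 3 biopsies were close to each other and far above both controls. The log2 fold change was 2.18 ± 0.16 (4.53-fold) with an adjusted p of 0.000471, and at most 0.0151 when any library was left out. Of the 8 tested B3GNT genes, 3 were not called, 3 were higher and 2 lower, beside 18.5% and 19.0% over all genes. B3GNT9 read 13, 11.8 and 20.7 CPM in the biopsies against 6.24 and 4.15 CPM in the controls, with the 48 h biopsy highest and no overlap (log2 fold change 1.54 ± 0.31, adjusted p 0.00954, and 0.0409 and 0.0984 without the first and the second control). B3GNT2, the main enzyme of poly-N-acetyllactosamine chains, read 124, 91.9 and 84.9 CPM in the biopsies and 60.3 and 56.1 CPM in the controls. It was highest at 12 h, with a log2 fold change of 0.79 ± 0.18 and an adjusted p of 0.0158 (0.095 and 0.14).

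The 2 falls in the same family were B3GNT8 and B3GNTL1. B3GNT8, which extends branches of N-glycans in concert with B3GNT2, read 7.35, 9.51 and 6.72 CPM in the biopsies and 13.8 and 17.6 CPM in the controls. All biopsies were below both controls, and the log2 fold change was -1 ± 0.20 with an adjusted p of 0.00957 (0.0434 and 0.121 without the first and the second control). B3GNTL1 read 16.2, 18.3 and 18.1 CPM in the biopsies and 21.9 and 28.5 CPM in the controls, a log2 fold change of -0.52 ± 0.16 with an adjusted p of 0.0358 (0.0557 and 0.297, and 0.0729 without the 24 h biopsy). Its call was also lost under upper quartile scaling. B3GNT5, which opens the lacto-series of glycolipids, was below both controls in all biopsies, at 31.6, 30.5 and 20.2 CPM against 38.9 and 38.9 CPM, but did not pass (log2 fold change -0.50, adjusted p 0.0881).

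**Figure D2:**
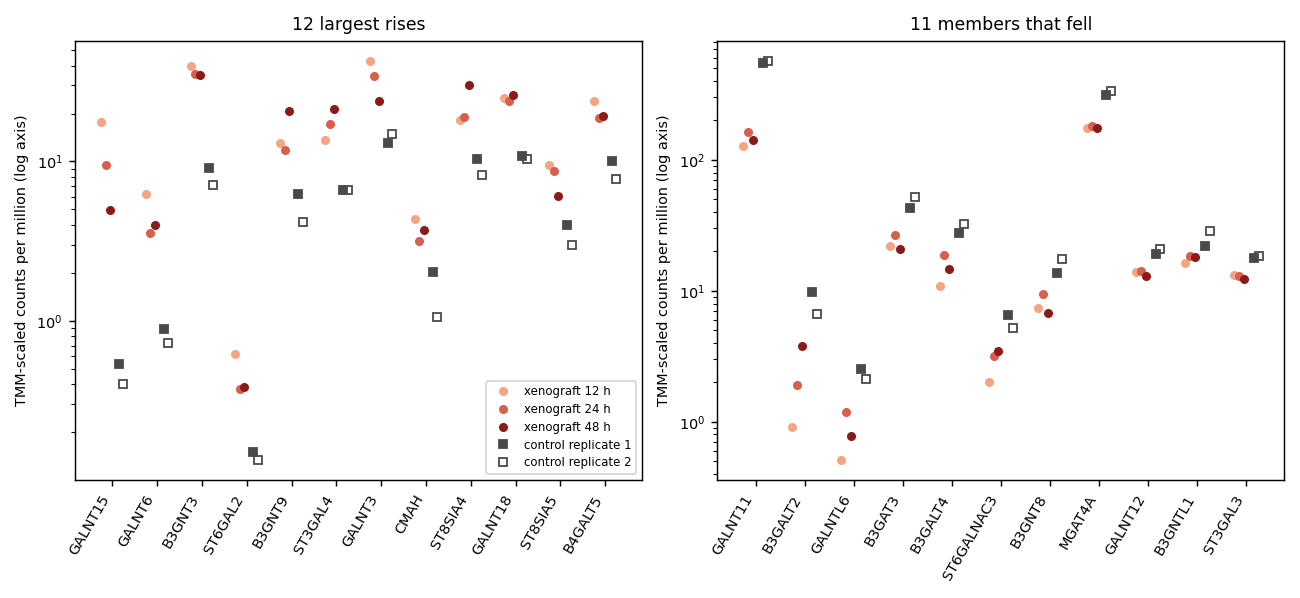
TMM-scaled CPM on a log axis in each library for the 12 largest called rises (left panel) and the 11 called falls (right panel); circles are the xenograft biopsies at 12, 24 and 48 h and squares the 2 controls. In each gene the circles and squares do not overlap: GALNT11 lies at 127 to 163 in the biopsies and 551 and 572 in the controls, and B3GNT3 at 35.1 to 39.6 in the biopsies and 9.11 and 7.14 in the controls.

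The N-glycan branching enzymes changed in opposite directions within a pair of isoenzymes. MGAT4A and MGAT4B both add the beta-1,4-linked N-acetylglucosamine branch to the alpha-1,3 arm of the N-glycan core. MGAT4A stood at 174, 183 and 175 CPM in the biopsies and 311 and 336 CPM in the controls, and MGAT4B at 68.6, 84.2 and 87.5 CPM in the biopsies and 57.3 and 59.6 CPM in the controls. MGAT4A was low in all 3 biopsies (log2 fold change -0.87 ± 0.12, adjusted p 0.00264, at most 0.0472 with any library left out), whereas MGAT4B was slightly high in all 3 (0.45 ± 0.14, adjusted p 0.0421). The MGAT4B call was lost without the first control (adjusted p 0.213), without the second (0.193), without the 24 h biopsy (0.113) and without the 48 h biopsy (0.0774). MGAT1, which opens the path from high-mannose to complex N-glycans, read 115, 98.9 and 108 CPM in the biopsies against 78.5 and 80.1 CPM in the controls. This was a log2 fold change of 0.43 ± 0.12 with an adjusted p of 0.0294 (0.176 and 0.174 without the first and the second control). Of 7 tested MGAT genes, 4 were not called, 2 were higher and 1 lower, beside 18.5% and 19.0% over all genes. Among those not called, MGAT3, which adds the bisecting sugar that stops further branching, read 3.77, 5.12 and 6.57 CPM in the biopsies and 3 and 2.92 CPM in the controls (adjusted p 0.0675). MGAT5, which adds the beta-1,6 branch, had a log2 fold change of -0.17 and an adjusted p of 0.277, and MGAT2 one of 0.10 and 0.627.

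The beta-1,4-galactosyltransferases, which add the galactose of N-acetyllactosamine and of lactosylceramide, included 4 rises and no fall among 6 tested genes. The shares over all genes were 18.5% higher and 19.0% lower. B4GALT5, a lactosylceramide synthase, read 24.0, 18.8 and 19.3 CPM in the biopsies and 10.1 and 7.76 CPM in the controls. Every biopsy was above both controls, with a log2 fold change of 1.21 ± 0.19 and an adjusted p of 0.00368 (0.0234 and 0.0535 without the first and the second control). The other 3 were B4GALT4, at 1.20 ± 0.19, B4GALT2, at 0.54 ± 0.14, and B4GALT1, the main enzyme of this step, at 0.47 ± 0.11, with adjusted p of 0.00353, 0.0213 and 0.0165. Without the second control library all 3 missed the threshold, with adjusted p of 0.058, 0.103 and 0.141, and B4GALT2 and B4GALT1 also missed it without the first, with 0.161 and 0.115. B4GALT1 read 70.6, 69.5 and 74.6 CPM in the biopsies and 52.0 and 51.4 CPM in the controls, so both groups were tight around a small difference. B4GALNT3, which makes the LacdiNAc unit, was the called gene among the 3 B4GALNT members, at 15.7, 24.1 and 15.5 CPM in the biopsies and 9.04 and 10.2 CPM in the controls. It was highest at 24 h (log2 fold change 0.94 ± 0.23, adjusted p 0.019, and 0.138 and 0.111 without the first and the second control).

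The 6 tested beta-1,3-galactosyl- and N-acetylgalactosaminyltransferases split evenly, with 2 higher and 2 lower among the B3GALT genes and the 2 B3GALNT genes not called. The shares over all genes were 18.5% higher and 19.0% lower. B3GALT2, which adds galactose in beta-1,3 linkage to make type 1 chains, read 0.912, 1.91 and 3.78 CPM in the biopsies and 9.76 and 6.70 CPM in the controls. It was far below the controls at 12 h and nearer to them at 48 h. The log2 fold change was -1.90 ± 0.55, with an adjusted p of 0.0355 (0.185 and 0.116 without the first and the second control, and 0.102 without the 24 h biopsy). In the RefSeq annotation of Sscrofa11.1 B3GALT2 overlaps the coding gene CDC73. Since the strand setting of the counting is not given, reads of CDC73 could have been counted here. B3GALT4, the GM1 ganglioside synthase, read 10.8, 18.7 and 14.7 CPM in the biopsies and 27.6 and 32.2 CPM in the controls. All biopsies were below both controls, with a log2 fold change of -1.02 ± 0.23 and an adjusted p of 0.0131 (0.0622 and 0.121). The 2 rises, both at low counts, were B3GALT1, at 2.76, 3.32 and 4.35 CPM in the biopsies and 1.72 and 1.32 CPM in the controls (adjusted p 0.0254, and 0.102, 0.197 and 0.0582 without the first control, the second control and the 24 h biopsy), and B3GALT6, at 2.20, 1.85 and 2.83 CPM in the biopsies and 1.04 and 1.09 CPM in the controls (adjusted p 0.0319, and 0.185 and 0.183 without either control). B3GALNT2, an enzyme of the dystroglycan O-mannose chain, had a log2 fold change of 0.18 and an adjusted p of 0.438.

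B3GALT6 also belongs to the linker by which glycosaminoglycans are attached to proteoglycans, and the linker genes did not move one way. B3GAT3, which closes that linker with glucuronic acid, read 21.9, 26.8 and 21.0 CPM in the biopsies and 42.8 and 52.4 CPM in the controls. All biopsies were well below both controls, a log2 fold change of -1.03 ± 0.16 with an adjusted p of 0.00335 (0.0221 and 0.0528 without the first and the second control). B4GALT7, which adds the first galactose of the linker, read 9.26, 10.3 and 9.38 CPM in the biopsies and 7.33 and 7.53 CPM in the controls and did not pass (adjusted p 0.106). The neighbouring glucuronyltransferase B4GAT1, of the dystroglycan chain, had a log2 fold change of -0.38 and an adjusted p of 0.155, and B3GLCT, which glucosylates O-fucose on thrombospondin repeats, one of -0.34 and 0.142.

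Among the sialyltransferases the clearest rise was in ST3GAL4, which caps galactose with alpha-2,3-linked sialic acid and takes part in making sialyl Lewis x. It stood at 13.6, 17.2 and 21.2 CPM in the biopsies and 6.60 and 6.58 CPM in the controls. Every biopsy was well above both controls, which agreed closely. The log2 fold change was 1.39 ± 0.22, with an adjusted p of 0.00356 (0.0428 and 0.0524 without the first and the second control). ST3GAL3 read 13.1, 13 and 12.3 CPM in the biopsies against 17.7 and 18.3 CPM in the controls, a log2 fold change of -0.49 ± 0.13 with an adjusted p of 0.0228 (0.119 and 0.166, and 0.0591 without the 24 h biopsy). The other 4 genes of the alpha-2,3 group lay between -0.17 and 0.19 on the log2 scale, with adjusted p of 0.295 or more. Among them were ST3GAL5, the GM3 synthase that feeds most gangliosides (-0.12), and ST3GAL6, at 118, 143 and 106 CPM in the biopsies and 124 and 123 CPM in the controls (-0.01). A p that misses the threshold does not show equal levels.

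The alpha-2,6 sialyltransferase of N-glycans, ST6GAL1, was above both controls in all biopsies, at 32.5, 35.9 and 37.2 CPM against 28.6 and 27.5 CPM, with a log2 fold change of 0.33 ± 0.12 that did not pass (adjusted p 0.0714). Its paralogue ST6GAL2 read 0.622, 0.371 and 0.387 CPM in the biopsies and 0.151 and 0.134 CPM in the controls. That call (log2 fold change 1.68 ± 0.47, adjusted p 0.0304) rests on few reads, was lost without the first (0.159) and the second control (0.198) and in a DESeq2 test, and concerns a gene that passed the filter through the xenograft alone. ST6GALNAC3, which adds sialic acid to the N-acetylgalactosamine of O-glycans and gangliosides, read 2.02, 3.19 and 3.50 CPM in the biopsies and 6.58 and 5.16 CPM in the controls. It was below both controls throughout (log2 fold change -1.02 ± 0.30, adjusted p 0.034, and 0.226, 0.125 and 0.0696 without the first control, the second control and the 24 h biopsy), and the call was lost under upper quartile scaling. ST6GALNAC4, of the same group, had a log2 fold change of 0.20 and an adjusted p of 0.338.

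Of the alpha-2,8 sialyltransferases, 2 of 4 tested were higher and none lower, beside 18.5% and 19.0% over all genes. ST8SIA4, a polysialyltransferase whose polysialic acid is carried by NCAM and by some leukocyte proteins, read 18.2, 18.9 and 30.3 CPM in the biopsies and 10.4 and 8.18 CPM in the controls. The 48 h biopsy was the highest, and none overlapped the controls. Its log2 fold change was 1.27 ± 0.27 with an adjusted p of 0.0106 (0.0575 and 0.114 without the first and the second control). ST8SIA5, an enzyme of complex gangliosides, read 9.44, 8.78 and 6.06 CPM in the biopsies and 3.98 and 2.99 CPM in the controls, a log2 fold change of 1.21 ± 0.27 with an adjusted p of 0.0137 (0.0625 and 0.136). ST8SIA1, the GD3 synthase, had a log2 fold change of 0.17 and an adjusted p of 0.569. Summed myeloid markers were higher alongside ST8SIA4 (335 to 486 CPM in the biopsies, 110 and 132 CPM in the controls). Summed fibroblast and pericyte markers and summed endothelial markers were higher too. The part of any of these lists in the ST8SIA4 rise was not tested.

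Among the genes nearest to carbohydrate xenoantigens and blood group antigens, CMAH and A4GALT were called higher. Neither call held in every fit that left out a library. CMAH, the hydroxylase that turns N-acetyl- into N-glycolylneuraminic acid and that is inactive in humans, stood at 4.35, 3.16 and 3.69 CPM in the biopsies and 2.04 and 1.06 CPM in the controls. These levels rest on 315, 230 and 248 counts in the biopsies and 122 and 55 counts in the controls. All biopsies were above both controls, but the 2 controls were themselves far apart. The log2 fold change was 1.27 ± 0.36, or 2.40-fold, with an adjusted p of 0.0313. It was 0.0495 without the first control, 0.21 without the second and 0.0529 without the 24 h biopsy, and the log2 fold change over the 5 fits that leave out a library lay between 0.87 and 1.82. A4GALT, which makes the glycolipid Gb3 and the P blood group antigens, read 24.0, 30.5 and 28.3 CPM in the biopsies and 19.6 and 18.1 CPM in the controls. The groups were apart, with a log2 fold change of 0.55 ± 0.15 and an adjusted p of 0.0253 (0.112, 0.186 and 0.0779 without the first control, the second control and the 24 h biopsy).

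Of the 7 fucosyltransferases tested, 5 were not called, 2 were higher and none lower, beside 18.5% and 19.0% over all genes. FUT1, which makes the blood group H antigen, read 12.1, 15.9 and 12.8 CPM in the biopsies and 8.49 and 9.81 CPM in the controls. All biopsies exceeded both controls (log2 fold change 0.57 ± 0.18, adjusted p 0.0434, and 0.244, 0.147 and 0.122 without the first control, the second control and the 24 h biopsy). FUT2, the secretor enzyme that makes H antigen on type 1 chains, was higher than the controls in each biopsy, at 35.1, 50.9 and 24.7 CPM against 22.8 and 22.4 CPM, but the spread between biopsies was wide and it did not pass (adjusted p 0.0972). FUT11 read 52.4, 53.5 and 50.9 CPM in the biopsies and 37.8 and 33.0 CPM in the controls, a log2 fold change of 0.56 ± 0.12 with an adjusted p of 0.0117 (0.0571 and 0.136 without the first and the second control). FUT8, which adds core fucose to N-glycans, had a log2 fold change of -0.01 and an adjusted p of 0.964. Of the 37 called members placed on a chromosome in the RefSeq annotation of Sscrofa11.1, 6 overlap another coding gene: besides B3GALT2, these were B3GNT9, FUT1, FUT11, MGAT1 and ST6GAL2. Among members not called but described singly, FUT2, B3GNT5, ST3GAL6, MGAT5 and B3GALNT2 also overlap another coding gene. The counts of all these genes are uncertain to that extent, because strand handling is not given.

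Within the xenograft, few slopes over the sampled hours were called, among the members as over all genes. With 1 library at each time, a slope that was not called does not show that a gene held steady. A slope over the 3 biopsies was called for 1 rising member and 2 falling members of 74, against 3.34% of all genes rising and 0.983% falling. The median change per 24 h was 0.05 on the log2 scale over the members and 0 over all genes. GALNT15 had the steepest fall, at -1.18 ± 0.19 per 24 h (adjusted p 0.0129), and kept its sign and its call without the biopsy at 12 h (-0.94, adjusted p 0.0138), at 24 h (-1.21, 8.72e-10) or at 48 h (-1.75, 0.00804). At 48 h it was still far above both controls. GALNT3 fell by 0.55 ± 0.13 per 24 h with an adjusted p of 0.0493, and this call was lost without the 12 h biopsy (0.0883) and without the 48 h biopsy (0.292). B3GALT2 was the rising gene, at 1.29 ± 0.25 per 24 h (adjusted p 0.0263), and was called without the biopsy at 12 h (0.98, adjusted p 0.0184), at 24 h (1.37, 1.17e-08) or at 48 h (2.13, 0.0201). Each of the 3 genes thus moved towards its control level between 12 and 48 h without reaching it. The fits without a biopsy have 1 residual degree of freedom, all of it from the control pair, so the spread between biopsies does not enter them. Among genes that rose in the arm comparison, ST3GAL4, ST8SIA4 and B3GNT9 read highest at 48 h, but their slopes were not called, with adjusted p of 0.156, 0.105 and 0.23.

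**Figure D3:**
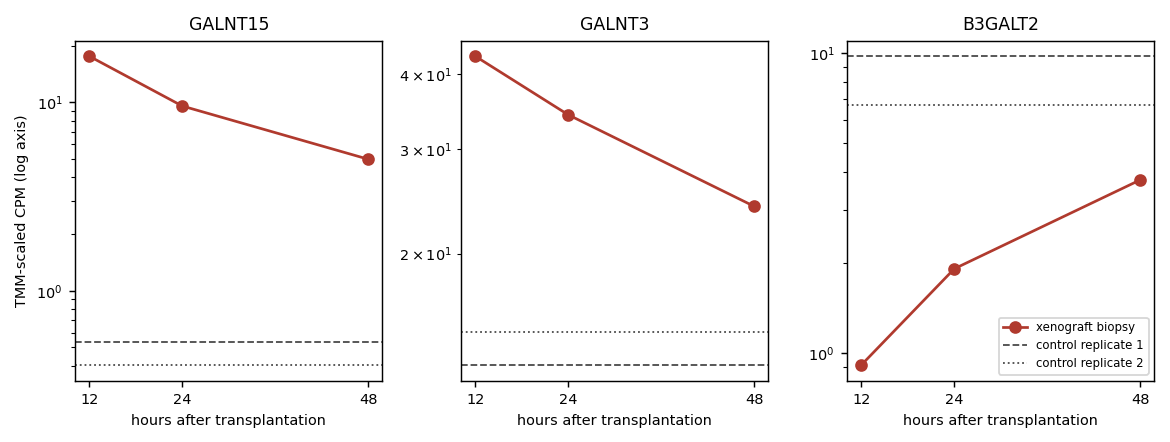
TMM-scaled CPM on log axes with a different range in each panel, against hours after transplantation, for the 3 members with a called slope; points joined by lines are single xenograft biopsies at 12, 24 and 48 h, and horizontal lines mark the 2 controls. GALNT15 (17.6, 9.57 and 4.99) and GALNT3 (42.9, 34.2 and 24.0) come down towards the controls and B3GALT2 (0.912, 1.91 and 3.78) comes up towards them.

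Genes around the transferases were examined by lists of the same pathway. The background for every list below is 18.5% higher and 19.0% lower over all genes. Enzymes that make or salvage nucleotide sugars, the donors of every transfer, gave 2 higher and 6 lower of 23 tested, beside 18.5% higher and 19.0% lower over all genes, with a median log2 fold change of -0.09 (0.03 over all genes). These counts were 0 higher and 2 lower without the first control library and 0 higher and 1 lower without the second. FCSK, the fucokinase of the salvage route to GDP-fucose, read 9.48, 14.2 and 12.4 CPM in the biopsies and 38.3 and 46.3 CPM in the controls, the largest fall of the list (log2 fold change -1.81 ± 0.19, adjusted p 0.000997). GFUS, the last enzyme of the de novo route to the same sugar, moved the other way, at 63.4, 47.5 and 48.2 CPM in the biopsies and 30.1 and 35.5 CPM in the controls (0.69 ± 0.17, adjusted p 0.019, and 0.153 and 0.0897 without the first and the second control). The Golgi GDP-fucose transporter SLC35C1 was the single call among 9 sugar transporters, to which the fit without the 24 h biopsy added 1 lower call. It read 34.0, 32.9 and 25.9 CPM in the biopsies and 13.8 and 15.5 CPM in the controls, a log2 fold change of 1.08 ± 0.16 with an adjusted p of 0.00341. The enzymes that make and carry CMP-sialic acid were not called: GNE had a log2 fold change of 0.06, CMAS one of -0.19 and the transporter SLC35A1 one of 0.13. NPL, the lyase that breaks down free sialic acid, read 56.8, 55.3 and 46.2 CPM in the biopsies and 198 and 245 CPM in the controls. This 4.21-fold lower level (log2 fold change -2.07 ± 0.15, adjusted p 0.000445) was the largest of the 3 falls among 12 glycan degrading enzymes, of which none was called higher between the arms. Without either control library 1 of these enzymes was lower, and without the 12 h biopsy 1 was called higher.

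Among 13 other glycosyltransferases tested, 3 were higher and 3 lower, against 2 and 2 without either the 24 h or the 48 h biopsy. Fewer were called when either control library was left out. The fringe enzymes LFNG and MFNG, which extend O-fucose on Notch receptors, led the rises: LFNG read 24.7, 31.9 and 30.5 CPM in the biopsies and 10.2 and 10.1 CPM in the controls (log2 fold change 1.52 ± 0.16, adjusted p 0.000975). MFNG read 13, 19.0 and 13.8 CPM in the biopsies and 4.75 and 4.18 CPM in the controls (1.77 ± 0.22, adjusted p 0.00168). In neither gene did the groups overlap. Of 7 N-glycan trimming enzymes, 1 was higher and 2 were lower, with 1 lower when either control library or the 24 h biopsy was left out and 2 higher without the 48 h biopsy, and here too related enzymes parted. The Golgi mannosidase gene MAN1A1 read 64.5, 53.9 and 60.4 CPM in the biopsies and 27.6 and 29.2 CPM in the controls (1.07 ± 0.13, adjusted p 0.00155), while MAN1C1 read 70.2, 84.9 and 96 CPM in the biopsies and 245 and 241 CPM in the controls (-1.54 ± 0.16, adjusted p 0.000858). Of these genes, FCSK, SLC35C1, NPL, LFNG, MFNG, MAN1A1 and MAN1C1 were called in each of the 5 fits that leave out a library.

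Lectins and selectins, which read these glycans on other cells, gave 5 higher and 2 lower of 10 tested, beside 18.5% and 19.0% over all genes, with a median log2 fold change of 1.57 (0.03 over all genes). These counts were 2 higher and 1 lower without the first control library, 2 higher and 0 lower without the second, and 3 higher and 1 lower without the 24 h biopsy. SELP, the P-selectin of activated endothelium and platelets that binds sialylated and fucosylated chains, read 8.22, 11.6 and 5.79 CPM in the biopsies and 0.887 and 0.653 CPM in the controls. Every biopsy was far above both controls (log2 fold change 3.46 ± 0.38, adjusted p 0.00115). MRC1, the macrophage mannose receptor, read 90.7, 90.7 and 150 CPM in the biopsies and 17.3 and 16.6 CPM in the controls (2.70 ± 0.27, adjusted p 0.000947). Both were called in every fit that left out a library. LGALS3, the beta-galactoside binding galectin-3, read 147, 92.9 and 62.5 CPM in the biopsies and 20.3 and 21.5 CPM in the controls (2.27 ± 0.37, adjusted p 0.00553, and 0.0557 and 0.0633 without the first and the second control). Over the pathway lists together, 12 genes were higher and 16 lower. The lists held 23, 9, 12, 13, 7 and 10 tested genes, in the order described. Over all genes, 18.5% were higher and 19.0% lower. Most of the pathway calls were lost in some fit that leaves out a library.

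A second table gives counts of the same libraries against the human genome (build hg38, per the submitters' processing notes), which holds 122 symbols found by the same rule, 82 of them also in the pig table. Untransplanted pig kidney gave human counts too, 22.8 and 18.8 human counts per 100 pig counts over all genes, against 31.2, 29.0 and 33.4 in the biopsies at 12, 24 and 48 h. These control values are the background for any human signal, and a read that maps to both genomes could be counted in both tables. For 54 members with at least 50 pig counts in every library and 10 human counts in every biopsy, the human counts per 100 pig counts were compared. All 3 biopsies were above both controls for 35 of them, or 64.8%, against 65.4% of the 10256 symbols in both tables, and so no more often than elsewhere. The lowest biopsy was at least 2 times the highest control for 2 members (3.7%), against 5.8% of all symbols.

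Those 2 members were both MGAT genes. MGAT1 had 16.5, 15.6 and 27.9 human counts per 100 pig counts in the biopsies and 6.95 and 6.33 in the controls, with the 48 h biopsy highest. MGAT4A had 6.33, 4.26 and 5.10 in the biopsies and 2.12 and 1.44 in the controls, so its human-to-pig ratio was higher in the biopsies while its pig level was lower. ST3GAL5 had 20.2, 19.1 and 27.7 in the biopsies and 11.9 and 8.93 in the controls, and B4GALT1 had 12.8, 10.5 and 14.8 in the biopsies and 7.43 and 5.94 in the controls. In contrast, the ratio for GALNT11 was 14.6, 14.1 and 14.0 in the biopsies and 14.1 and 12.0 in the controls, and for GALNT18 it was 53.2, 56.6 and 55.1 in the biopsies and 54.3 and 53.2 in the controls. For these genes the human counts tracked the pig counts in all 5 libraries. These ratios are given as values with no test. CMAH was not among the human-table symbols found by the same rule. The human-table symbol B4GALNT2 had 1, 5 and 12 counts in the biopsies and 6 and 1 counts in the controls, so the groups overlapped.

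**Figure D4:**
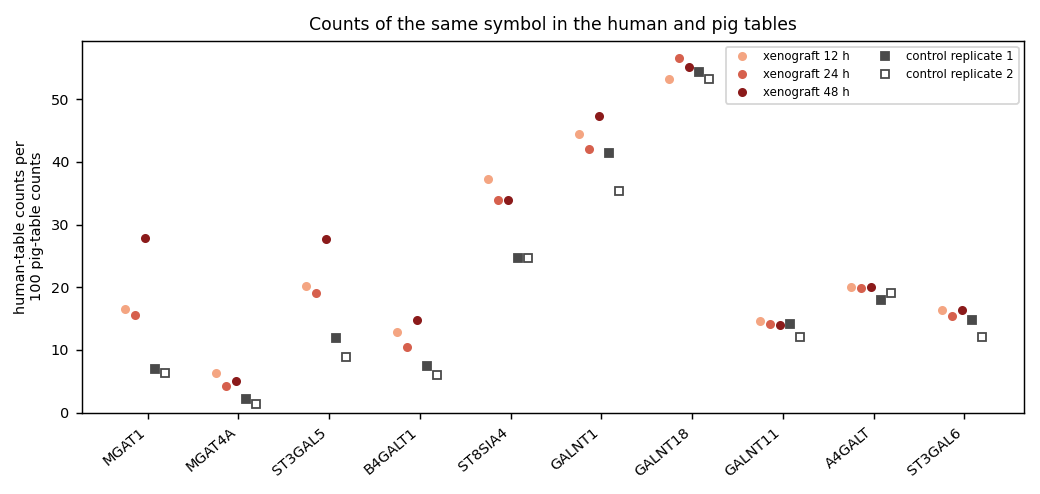
Human-table counts per 100 pig-table counts of the same symbol (y axis, linear) in each library for 10 members; circles are the xenograft biopsies at 12, 24 and 48 h and squares the 2 controls. MGAT1 (15.6 to 27.9 in the biopsies, 6.95 and 6.33 in the controls) stands apart from its controls, whereas GALNT18 (53.2 to 56.6 in the biopsies, 54.3 and 53.2 in the controls) does not.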

How the data were processed

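Total RNA from kidney cores was depleted of ribosomal RNA before library construction, per the labels' protocols. The deposited tables hold raw counts per gene symbol for the 5 libraries, 1 table for the pig and 1 for the human genome. The submitters' processing notes name hg38; the aligner, counter, strand setting and annotation are not given in the sources used here.

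The pig counts were tested over the whole table with edgeR 4.0.16 (R 4.3.3; TMM, filterByExpr at minimum count 10 and minimum total 15, glmQLFit with the robust option, glmQLFTest), and p-values were adjusted by Benjamini-Hochberg over 12620 genes at 0.05. The first fit compared the arms (3 residual degrees of freedom); the second added hours within the xenograft (2 residual degrees of freedom). Standard errors are the absolute log2 fold change over the square root of F and are approximate. Fold changes are fitted values. All tests are two-sided. The pipeline was tested on simulated data.

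Named genes are CMAH and A4GALT, up to 12 members with the largest called change in each direction (11 were called lower), those with a called slope, the member with the highest count in each enzyme group, and others where a small count is spelled out. The non-called members and the pathway and ratio genes described singly were picked after their values were seen. Members and lists were chosen with earlier results of these data known. Alternatives were other scaling (DESeq2 size factors, upper quartile), mitochondrial genes left out, other count filters, no robust option, a DESeq2 1.42.0 test, a mean-time model, log2 hours, and leaving out each library.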

Additional observations from a re-analysis of the deposited data

Results flagged for a closer look

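In the human table, among symbols found by the same rule but not listed in the pig table, 2 had at least 1 CPM in every biopsy and read higher there than in either control; symbols below that level are not described. FUT4, the myeloid alpha-1,3-fucosyltransferase that makes the CD15 antigen on human granulocytes, had at least 4.41 human-table CPM (counts scaled to the total of the human table in each library) in the biopsies: 4.41, 4.43 and 5.70 at 12, 24 and 48 h, against 0.996 and 1.20 in the controls. These rest on 87, 85 and 107 counts in the biopsies and 15 and 16 counts in the controls. ST6GALNAC2, an alpha-2,6-sialyltransferase of O-glycans, had at least 4.05 human-table CPM in the biopsies, at 4.05, 6.98 and 5.86, against 2.32 and 2.24 in the controls. The counts behind it were 80, 134 and 110 in the biopsies and 35 and 30 in the controls. Without a pig value for either symbol, reads of a pig counterpart counted in the human table cannot be told apart from human RNA, and the difference between groups was not tested.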

How the results depend on the processing

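Leaving out a library changed the counts most. With each library left out in turn, 2 to 29 members were higher and 2 to 13 were lower in the xenograft (27 and 11 with all libraries). With each biopsy left out in turn, 4 to 10 members rose and 4 to 7 fell with time (1 and 2 with all), in fits whose spread comes from the control pair alone. The called falls with time numbered 1 under upper quartile scaling and 1 with a minimum count of 50, since GALNT3 missed the threshold there (adjusted p 0.0568 and 0.0536). The change of B4GALNT3 per 24 h reversed to 1.24 (adjusted p 0.0312) without the 48 h biopsy, against -0.64 without the 12 h biopsy and -0.12 with all libraries; the cause was not tested. Under the other scalings, filters and tools, 37 to 38 members were called between the arms, and 45 were called in the mean-time model. Over the members followed under each alternative, 959 values stayed on their side of the threshold, 76 lost the call, 18 gained it and 1 reversed. This tally pools fold changes between the arms with changes per 24 h. Most of the latter were not called with all libraries and so could not lose a call. Most of the lost calls were calls between the arms in the fits without a control library. Upper quartile scaling moved the median of all genes to 0.11, against 0.03 under TMM, and the split of all calls to 2775 higher and 2027 lower, against 2332 and 2402. No paired analysis was possible because the biopsies carry no replicate number and each is the single library of its time. Genes at a few counts, such as FUT7 and ST6GAL2, are limited by depth.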
